A study of Mus musculus with 4 samples.

Results

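The genes described here are the 28 that encode enzymes of sterol and fatty acid synthesis and the proteins that govern or carry their products. They were chosen by name from the pathways, with earlier results of these data known. Counts and medians over the list are therefore descriptions and not independent support. All 28 were found among the 20065 genes of the expression table, and all 28 passed the filter on low counts that left 16153 genes for testing. RNA-seq was made from cultured muscle satellite cells (MuSC), the stem cells of skeletal muscle, isolated from limb and trunk muscles of adult C57BL/6 mice. The 2 control libraries carry Pax7CreERT2/Prmt5+/loxP and the 2 Prmt5sKO libraries Pax7CreERT2/Prmt5loxP/loxP, and all 4 were marked +TAM. Both groups therefore share the tamoxifen-activated Cre, which is expressed from Pax7 and recombines only cells that express it, and the control cells also hold 1 loxP-flanked Prmt5 allele. That allele is open to the same Cre, so Prmt5 in control cells may lie below the level of cells with intact alleles. Whether it was recombined was not tested. According to the methods of the study, 4-OH-tamoxifen was added to the cells in culture. Whether the libraries of a group came from separate animals or cultures is not stated in the labels, so p-values measure the spread between these samples. Xist was high in 1 library of each group and near 0 in the other (values below), so this spread was not only technical.

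Sterols are built from acetyl-CoA through mevalonate, isoprenoid diphosphates, squalene and lanosterol, and lanosterol is trimmed and rearranged to cholesterol. Fatty acids are built from the same acetyl-CoA by carboxylation to malonyl-CoA, chain assembly, elongation and desaturation. Transcription of both routes is driven by the SREBP factors, membrane-bound proteins that SCAP carries out of the endoplasmic reticulum when sterol is scarce and that INSIG proteins hold back when sterol is plentiful, whereas sterol export is driven by the LXR receptors when sterols accumulate. Dividing cells use both routes to make membrane.

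The promoters of these genes are known for SREBP sites flanked by CCAAT boxes bound by NF-Y, so 5 of them are shown for members that were lower in both Prmt5sKO libraries: Fasn, the highest of the list per length in control cells; Hmgcs1 and Mvk, early steps of the mevalonate route; Insig1, a sterol-sensitive regulator; and Sc5d, a late step. Sequences are from RefSeq (GRCm38.p6), run 5′ to 3′ on the strand of the gene, and cover the part of the 250 bases before the RefSeq start that lies in no annotated exon. Capitals mark CCAAT on either strand (ATTGG where it lies on the other strand) and TCACCCCAC, a sterol-response-like motif, on either strand with up to 1 mismatch.
Fasn (chr11:120824548-120824797, minus strand): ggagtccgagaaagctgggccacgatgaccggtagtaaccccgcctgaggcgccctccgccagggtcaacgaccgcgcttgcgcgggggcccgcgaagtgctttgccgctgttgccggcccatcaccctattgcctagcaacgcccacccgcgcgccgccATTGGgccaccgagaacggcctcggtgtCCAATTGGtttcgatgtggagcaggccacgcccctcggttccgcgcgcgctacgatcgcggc
Hmgcs1 (chr13:119690101-119690350, plus strand): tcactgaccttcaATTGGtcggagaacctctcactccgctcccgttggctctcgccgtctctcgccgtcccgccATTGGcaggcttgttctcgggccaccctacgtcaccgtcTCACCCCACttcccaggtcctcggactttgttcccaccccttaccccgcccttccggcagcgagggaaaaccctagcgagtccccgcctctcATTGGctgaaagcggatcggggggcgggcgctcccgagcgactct
Insig1 (chr5:28071162-28071362, plus strand): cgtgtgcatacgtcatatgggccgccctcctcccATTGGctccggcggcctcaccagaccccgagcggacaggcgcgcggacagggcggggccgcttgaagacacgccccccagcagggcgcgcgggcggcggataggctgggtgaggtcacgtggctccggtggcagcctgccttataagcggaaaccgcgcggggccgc
Mvk (chr5:114444061-114444268, plus strand): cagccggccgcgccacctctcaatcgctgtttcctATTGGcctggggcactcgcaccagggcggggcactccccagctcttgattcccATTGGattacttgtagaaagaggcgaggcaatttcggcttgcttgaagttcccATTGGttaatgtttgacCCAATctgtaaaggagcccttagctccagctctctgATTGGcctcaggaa
Sc5d (chr9:42264301-42264550, minus strand): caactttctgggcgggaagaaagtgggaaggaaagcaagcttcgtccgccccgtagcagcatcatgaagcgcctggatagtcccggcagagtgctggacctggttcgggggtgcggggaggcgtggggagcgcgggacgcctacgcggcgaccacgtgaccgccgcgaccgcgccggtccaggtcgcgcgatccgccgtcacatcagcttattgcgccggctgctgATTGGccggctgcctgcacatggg
The Fasn stretch holds 3 CCAAT matches, of which a pair overlaps on opposite strands. Mvk has 5, and Insig1 and Sc5d have 1 each. Hmgcs1 has 3, with 1 exact TCACCCCAC whose first base lies 137 bases before the RefSeq start. The bases just after the RefSeq start were found in a GENCODE transcript for Fasn, Insig1 and Mvk but not for Hmgcs1 and Sc5d. Positions in these last promoters therefore depend on the annotation. The RefSeq table held a promoter for 22 of the 28 members and not for Stard4, Scd1, Scd2, Fdft1, Sqle and Fdps. Over the whole 250 bases, 19 of the 22 members (86.4%) held CCAAT in at least 1 promoter, against 37.5% of all 27025 genes in the table and 39.8% of those tested here. The members without it were Elovl6, Acly and Acaca, all lower in both Prmt5sKO libraries. Acss2, which was higher in both, held CCAAT, as did members that overlapped between the groups, such as Ebp and Mvd. The presence of CCAAT thus did not set the lower members apart. GGGCGG, the letters of an Sp1 box, occurred in 18 of 22 (81.8%), against 35.4% of all genes and 62.4% of those tested. TCACCCCAC with up to 1 mismatch occurred in 4 of 22 (18.2%; Hsd17b7, Hmgcs1, Srebf2 and Nsdhl), against 9.69% of all genes and 10.8% of those tested. A match of letters is a description of the window and not a bound site.

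The targeted gene was checked first. Normalized counts of Prmt5 (chromosome 14, 54507187 to 54517525, GRCm38) were 2223 and 2843 in control against 238 and 198 in Prmt5sKO, which places it at 8.61% of the control mean. A normalized count is the number of reads of a gene in a library, rescaled by trimmed mean of M-values (TMM) so that the 4 libraries have 1 common effective depth. The libraries held between 13240754 and 20047430 reads on genes, and since the columns are not numbered by replicate, a library is called deeper or shallower than the other of its group. Pairs of values give the deeper library first throughout. Myogenic markers (Pax7, Myf5, Myod1, Des, Cdh15 and Itga7) were present in every library and summed to 39301 to 45888 normalized counts in control and 39903 to 69502 in Prmt5sKO. The shallower Prmt5sKO library stood apart: 8 genes of muscle differentiation (Myog, Mymk, Myh3, Acta1, Ckm, Tnnt3, Tnnc2 and Mylpf) summed to 208010 in it, against 15779 in the deeper Prmt5sKO library and 5742 to 9441 in control. The counts and the median over all members are therefore also given without that library. Of the 8 differentiation genes, 7 were higher in both Prmt5sKO libraries, against 25.2% of all genes tested. Leaving out the shallower Prmt5sKO library therefore does not remove the difference in these markers. Proliferation markers (Mki67, Top2a, Pcna, Mcm2, Mcm5, Ccnb1, Cdk1 and Tyms) summed to 33369 to 38158 in control and to 16664 to 17999 in Prmt5sKO. Of the 8, 7 were lower in both Prmt5sKO libraries, against 23.6% of all genes tested.

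Sterol and fatty acid synthesis genes were mostly lower in Prmt5sKO cells. Of the 28 members, 16 had both Prmt5sKO libraries under both control libraries, Acss2 alone was higher in both, and 11 overlapped. The same pattern was met by 23.6% of all genes tested for lower and 25.2% for higher, against 57.1% and 3.57% of the members. The median log2 difference, Prmt5sKO minus control, was -0.62 over the members and 0.02 over all genes tested, and 26 of the 28 differences were negative. No member passed the test: limma-voom with Benjamini-Hochberg adjustment over 16153 genes called 0% of all genes and 0 of 28 members at an adjusted p of at most 0.05 and at least a 2-fold difference, and robust limma-trend also called 0 members. The fit without a block decides these calls: with a replicate block that pairs the deeper library of each group with the shallower one of the other, chosen after seeing the data, limma-voom called 334 genes and 2 members, Fasn and Elovl6. This pairing also joins the libraries that are alike in Xist, high in the deeper control and shallower Prmt5sKO libraries and low in the other two. With the deeper libraries paired, 0 genes were called. Which pairing holds cannot be read from the columns. At an unadjusted p under 0.05 in limma-voom, 9 members were lower and 1 was higher, and the background was 6.97% of all genes lower and 6.03% higher. Adjusted p values of the members ran from 0.214 to 0.976 in limma-voom. With 2 libraries against 2, an exact two-sided permutation test of a single gene cannot go below p = 0.333.

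The sum over the 28 members, in which abundant genes weigh most, was 38684 and 51905 normalized counts in control against 25418 and 30753 in Prmt5sKO. The groups did not overlap in this sum, but the control libraries themselves differed. The shallower control library was higher than the deeper one for 27 of 28 members, with a median log2 difference of 0.49 against -0.02 over all genes tested. It was the highest of all 4 libraries for 23 members (82.1%), compared with 27.8% of all genes. In the Prmt5sKO pair the median of shallower minus deeper was 0.22 for the members and -0.02 for all genes. Without the shallower control library the median over the members was -0.30, with 17 members lower and 4 higher than the remaining control library in both Prmt5sKO libraries (33.9% and 35.4% of all genes). Leaving out the shallower Prmt5sKO library, the one with the highest differentiation markers, gave a median of -0.72, with 24 members lower and 1 higher (36.6% and 38.4% of all genes). When libraries were scaled by library size alone, 14 members were lower and 1 higher, against 18.2% and 30.02% of all genes, and the median over all genes shifted to 0.13. What sets the control libraries apart, and the part of cell division or differentiation in the difference between the groups, was not tested. In bulk RNA, fewer cells of a kind and less RNA per cell cannot be told apart.

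**Figure D1:**
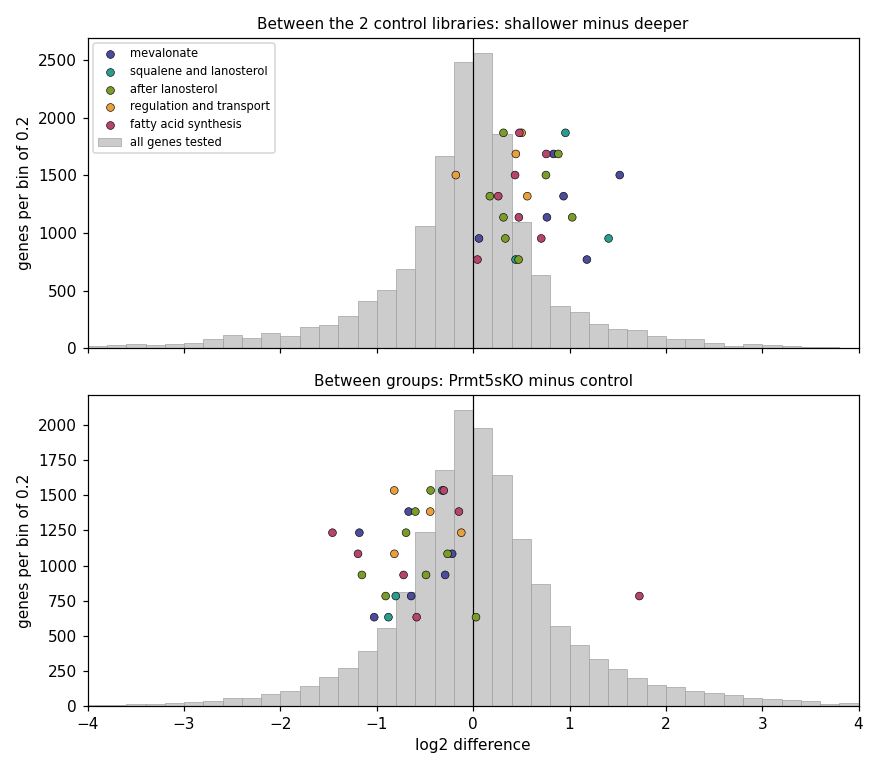
Histograms of the log2 difference between the 2 control libraries (top, shallower minus deeper) and between the groups (bottom, Prmt5sKO minus control) for all genes tested, in bins of 0.2, with the 28 members as points coloured by role. The height of a point has no meaning and genes beyond 4 are not drawn. The members centre at 0.49 in the upper panel and at -0.62 in the lower one, where all genes centre at -0.02 and 0.02.

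**Figure D2:**
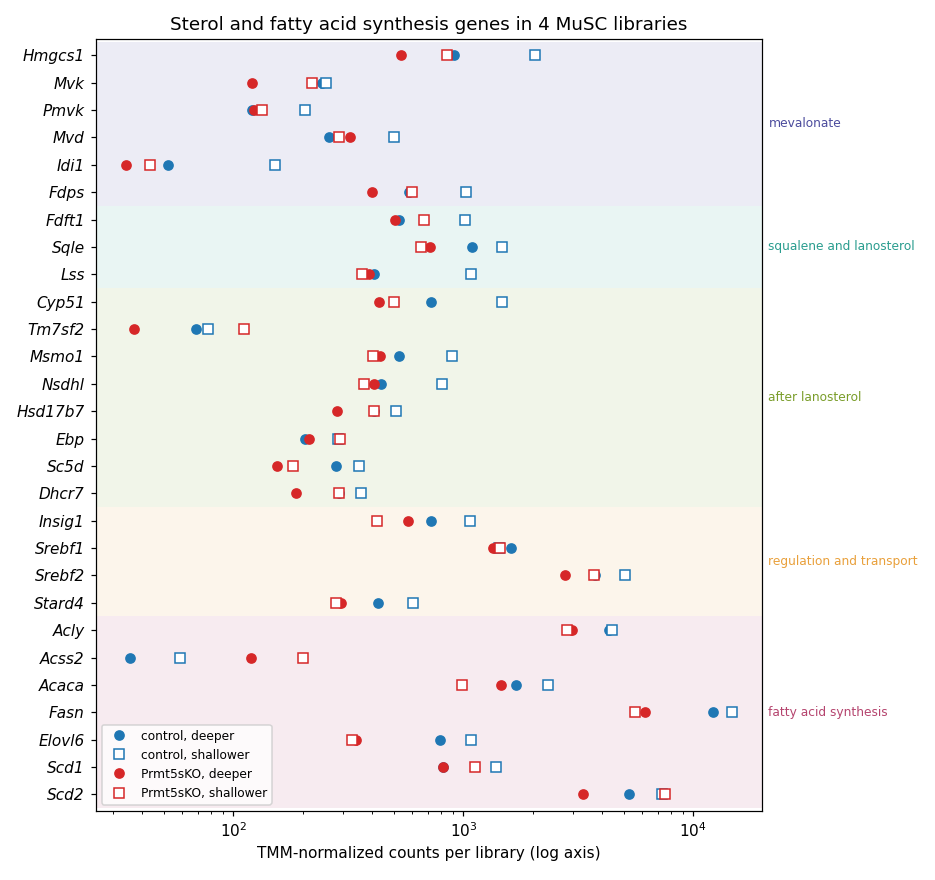
TMM-normalized counts of each member (log axis) in the deeper (circles) and shallower (squares) control (blue) and Prmt5sKO (red) libraries, grouped by role. Both red symbols lie left of both blue ones for 16 genes and right of them for Acss2.

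The mevalonate route had 3 of 6 genes lower in both Prmt5sKO libraries, against 23.6% of all genes tested. Its median log2 difference was -0.66. Hmgcs1, which makes HMG-CoA and opens the route (chromosome 13, 119690379 to 119708260, plus strand), had 906 and 2055 normalized counts in control against 536 and 847 in Prmt5sKO. Both Prmt5sKO values lay under both control values, the shallower of them by little, and the control libraries differed by more from each other than the deeper one did from either Prmt5sKO library. The log2 difference of Hmgcs1 was -1.03 (SE 0.44, limma-voom adjusted p = 0.392), and it lay between -1.63 and -0.43 when single libraries were left out. Mevalonate kinase, Mvk, had 242 and 252 in control against 121 and 220.4 in Prmt5sKO, a log2 difference of -0.64 (SE 0.38), which was -0.16 without the deeper and -1.03 without the shallower Prmt5sKO library. The control libraries were nearly level for Mvk, and the spread was within Prmt5sKO. Idi1, which isomerizes isopentenyl diphosphate, had 52.0 and 151 in control against 34.1 and 43.3 in Prmt5sKO. Its log2 difference of -1.18 had an SE of 0.67, the widest of the list, ranged from -1.99 to -0.44 without single libraries, and its normalized counts were among the lowest. The next genes overlapped between the groups. Pmvk, the kinase after Mvk, had 120.5 and 206 in control against 122 and 133 in Prmt5sKO (log2 difference -0.29), and Mvd, which forms isopentenyl diphosphate, had 259.8 and 499 against 320.4 and 288 (log2 difference -0.22). For both, only the shallower control library was high. Fdps, which joins isoprenoids into farnesyl diphosphate, had 578 and 1031 in control against 399 and 597 in Prmt5sKO (log2 difference -0.67, from -1.11 to -0.25 without single libraries), an overlap of the shallower Prmt5sKO with the deeper control library.

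Squalene and lanosterol are formed by 3 enzymes (median log2 difference -0.80). Sqle and Lss were lower in both Prmt5sKO libraries, as were 23.6% of all genes tested. Sqle, squalene epoxidase and a rate-limiting step (chromosome 15, 59315077 to 59331192), had 1086 and 1473 normalized counts in control against 719 and 651 in Prmt5sKO. The Prmt5sKO libraries lay close together, and the control libraries were further apart. Its log2 difference was -0.88 (SE 0.24, limma-voom adjusted p = 0.276), and without single libraries it lay between -1.12 and -0.66. Lss, which cyclizes the epoxide to lanosterol, had 408 and 1082 in control against 387 and 362 in Prmt5sKO. The deeper control library was only slightly above the Prmt5sKO libraries, so the log2 difference of -0.80 (SE 0.47) became -0.11 without the shallower control library. Fdft1, squalene synthase, had 523 and 1016 in control against 506 and 672 in Prmt5sKO, and the groups overlapped (log2 difference -0.32, SE 0.36).

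Of the 8 genes between lanosterol and cholesterol, 4 were lower in both Prmt5sKO libraries, against 23.6% of all genes tested. The median log2 difference of the 8 was -0.54. Cyp51, the lanosterol demethylase (chromosome 5, 4081145 to 4104746, minus strand), had 722 and 1473 normalized counts in control against 429 and 498 in Prmt5sKO. All Prmt5sKO values lay under the lower control value, at a log2 difference of -1.15 (SE 0.38, limma-voom adjusted p = 0.322), which was -0.64 without the shallower control library. Sc5d, the sterol desaturase near the end of the route (chromosome 9, 42251595 to 42264256, minus strand), had 279 and 351 in control against 154 and 181 in Prmt5sKO. Replicates of Sc5d were close in both groups, and its log2 difference of -0.91 (SE 0.30, limma-voom adjusted p = 0.326) stayed between -1.09 and -0.74 without single libraries. Msmo1, the methylsterol oxidase that starts removal of the remaining extra methyl groups, had 527 and 891 in control against 433 and 404 in Prmt5sKO (log2 difference -0.70, SE 0.31, from -1.10 to -0.32 without single libraries). Nsdhl, the X-linked decarboxylating dehydrogenase of the same removal, had 439 and 811 in control against 409.5 and 368 in Prmt5sKO (log2 difference -0.60, SE 0.34, from -1.07 to -0.16 without single libraries). For both genes the deeper control library was near the Prmt5sKO libraries. Xist, read beside the X-linked members, had 8479 and 22.8 normalized counts in control against 7.97 and 5532 in Prmt5sKO, high in 1 library of each group and low in the other.

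The other post-lanosterol genes overlapped between the groups. Hsd17b7, the ketoreductase partner of Nsdhl, had 409 and 509 in control against 281 and 410.2 in Prmt5sKO (log2 difference -0.44, from -0.69 to -0.15 without single libraries). Dhcr7, which completes cholesterol, had 289 and 359 in control against 188 and 289 in Prmt5sKO (log2 difference -0.49, SE 0.33, from -0.77 to -0.15 without single libraries), so that the shallower Prmt5sKO library was level with the deeper control library. Ebp, the X-linked sterol isomerase, had 206 and 285 in control against 213 and 291 in Prmt5sKO. Its log2 difference of 0.03 had a 95% confidence interval from -0.78 to 0.84, which leaves room for a difference of the size seen in its neighbours. Tm7sf2, a sterol reductase that shares its function with the lamin B receptor, had 68.5 and 77.4 in control against 37.0 and 111 in Prmt5sKO, with the Prmt5sKO libraries on either side of the control ones (log2 difference -0.27, SE 0.64).

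Of the 4 genes that govern the pathway or carry its product, 3 were lower in both Prmt5sKO libraries, against 23.6% of all genes tested. The median log2 difference of the 4 was -0.63. Insig1, which retains the SREBP complex in the endoplasmic reticulum (chromosome 5, 28071363 to 28078662, plus strand), had 725 and 1071 normalized counts in control against 575 and 422 in Prmt5sKO. The groups were separate, with a log2 difference of -0.82 (SE 0.29, limma-voom adjusted p = 0.346) that was -0.54 without the shallower control library. Stard4, a carrier of cholesterol between membranes, had 427 and 605 in control against 293 and 278 in Prmt5sKO, also a log2 difference of -0.82 (SE 0.28, limma-voom adjusted p = 0.33). Srebf2, which encodes the factor with a preference for sterol genes, had 3724 and 5062 in control against 2756 and 3682 in Prmt5sKO (log2 difference -0.45, SE 0.26, from -0.68 to -0.21 without single libraries). The shallower Prmt5sKO library came close to the deeper control library for Srebf2. Srebf1, which encodes the factor with a preference for fatty acid genes, had 1617 and 1427 in control against 1344 and 1450.1 in Prmt5sKO. The groups overlapped, and the log2 difference of -0.12 had a 95% confidence interval from -0.61 to 0.37. Srebf1 was the exception among the members in that the shallower control library did not exceed the deeper one.

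The fatty acid synthesis genes held the members with the smallest p and the 1 member that was higher in both Prmt5sKO libraries. Fasn, fatty acid synthase (chromosome 11, 120805846 to 120824547, minus strand), had 12232 and 14652 normalized counts in control against 6153 and 5567 in Prmt5sKO, a mean of 13442 ± 1711 (SD, n = 2) against 5860.0 ± 414 (SD, n = 2). Control cells thus had 2.29 times the Prmt5sKO level, with replicates close in both groups. The log2 difference was -1.20 (SE 0.22, limma-voom adjusted p = 0.214) and ranged from -1.34 to -1.06 without single libraries. Elovl6, which elongates the palmitate product of the synthase (chromosome 3, 129532355 to 129638495), had 795 and 1075 in control against 341 and 327 in Prmt5sKO. This was the largest negative difference of the list, at -1.46 on the log2 scale (SE 0.26, limma-voom adjusted p = 0.214), and it lay between -1.70 and -1.24 without single libraries. With the block that pairs the deeper library of each group with the shallower one of the other, the limma-voom adjusted p was 0.041 for Fasn and 0.0332 for Elovl6. Over all alternatives the limma adjusted p ran from 0.0399 to 0.968 for Fasn and from 0.0332 to 0.968 for Elovl6. Acaca, the carboxylase that makes malonyl-CoA, had 1686 and 2342 in control against 1455 and 991 in Prmt5sKO (log2 difference -0.72, SE 0.28, -0.45 without the shallower Prmt5sKO library and -0.48 without the shallower control library). Acly, which releases cytosolic acetyl-CoA from citrate, had 4277 and 4411 in control against 2974 and 2814 in Prmt5sKO. The replicates of Acly were the closest of the list in control after taking logs, and the log2 difference was -0.59 (SE 0.19, limma-voom adjusted p = 0.324).

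Acss2, which makes acetyl-CoA from acetate (chromosome 2, 155517948 to 155585724), went the other way. It had 35.4 and 58.4 normalized counts in control against 119 and 201 in Prmt5sKO, so that the lower Prmt5sKO library was above the higher control library. The Prmt5sKO mean was 3.41 times that of control, at a log2 difference of 1.72 (SE 0.55, limma-voom adjusted p = 0.318) with a range from 1.35 to 2.15 without single libraries. Both enzymes supply cytosolic acetyl-CoA, and their levels per length stayed far apart: Acly had 823 normalized counts per kb of exon in control and 548 in Prmt5sKO, Acss2 4.61 and 15.7. The desaturases overlapped. Scd1 had 817 and 1383 in control against 815 and 1128 in Prmt5sKO (log2 difference -0.15, 95% confidence interval from -0.93 to 0.64). Scd2 had 5234 and 7298 in control against 3302 and 7525 in Prmt5sKO, which put the Prmt5sKO libraries at either end (log2 difference -0.30, SE 0.42). Scd1 and Scd2 are similar in sequence, and reads that fit both could be assigned to neither or to the wrong gene.

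**Figure D3:**
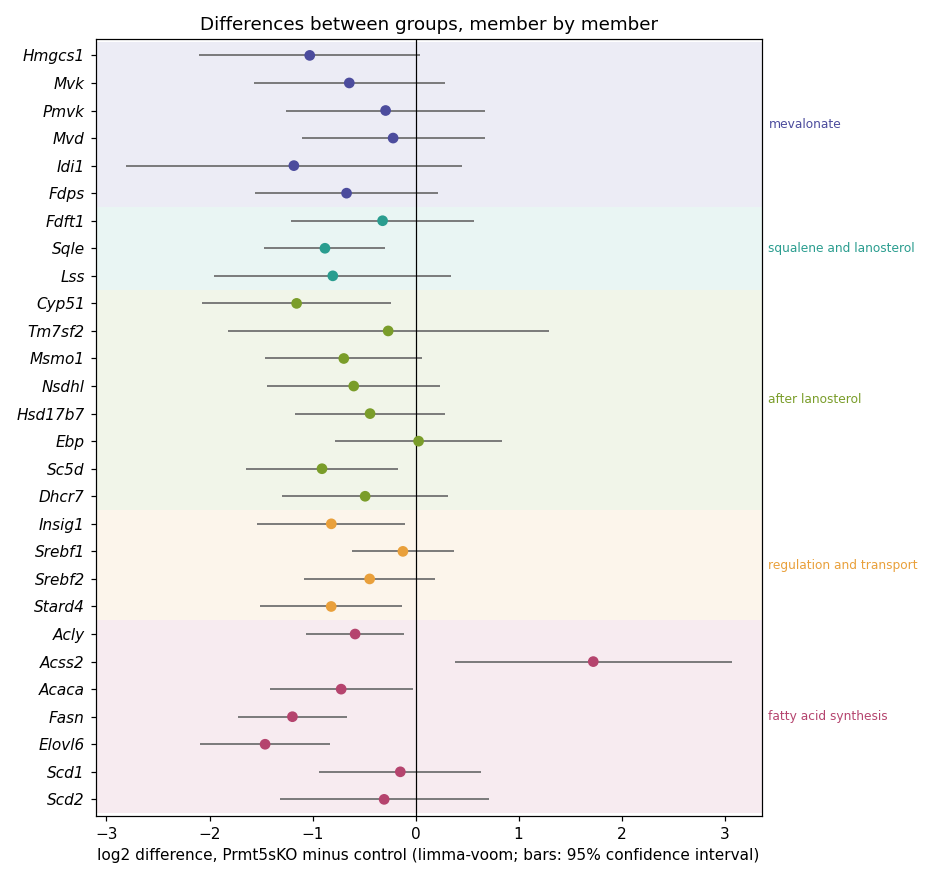
Log2 difference of each member, Prmt5sKO minus control, from limma-voom, grouped by role. Bars are 95% confidence intervals; 10 of the 28 exclude 0, all but Acss2 on the negative side, and none of these members passed the adjusted threshold.

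Per length, Fasn and Scd2 were the highest members in control cells, with 1228 and 1147 normalized counts per kb of exon, followed by Acly (823), Srebf2 (612) and Hmgcs1 (322). Fasn and Scd2 did not differ beyond their spread in control. In Prmt5sKO, Scd2 had 991 per kb and Fasn 535. Relative to the summed normalized counts of the 28 members, which takes out a change common to all, Fasn made up 31.6% and 28.2% in control against 24.2% and 18.1% in Prmt5sKO, and Elovl6 2.05% and 2.07% against 1.34% and 1.06%. Sqle made up 2.81% and 2.84% in control against 2.83% and 2.12% in Prmt5sKO. The shares of Fasn and Elovl6 were lower in both Prmt5sKO libraries, and that of Sqle was not. Those of the sterol genes Cyp51 (1.866% and 2.838% in control against 1.688% and 1.619% in Prmt5sKO) and Sc5d (0.7201% and 0.677% against 0.6074% and 0.5886%) were also lower in both. A lower share was thus not particular to fatty acid genes. The shares of Pmvk, Fdft1, Hsd17b7, Ebp, Srebf1, Srebf2, Acss2 and Scd1 were higher in both Prmt5sKO libraries.

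Genes of neighbouring pathways were taken from lists chosen by function, also with earlier results of these data known. None passed the test in either direction in limma-voom. Of 15 further genes of isoprenoid, sterol and fatty acid synthesis, both Prmt5sKO libraries were low for 6 (40%) and high for 3 (20%). Over all genes tested, 23.6% were lower in both and 25.2% higher. The median log2 difference of the 15 was -0.10. The widest differences were those of Fads2, Fads1, Acacb and Pdss1. Fads2, a desaturase of polyunsaturated fatty acids, had 671 and 953 normalized counts in control against 138 and 451 in Prmt5sKO (log2 difference -1.75, SE 0.53, from -2.52 to -0.82 without single libraries). Fads1, which acts after it, had 1450.4 and 2189.7 in control against 641 and 758 in Prmt5sKO, a log2 difference of -1.36 (SE 0.27, limma-voom adjusted p = 0.232). Pdss1, which builds the isoprenoid tail of coenzyme Q, had 430.03 and 634 in control against 261 and 273 in Prmt5sKO, at -0.96 (SE 0.29, limma-voom adjusted p = 0.302). These 3 were lower in both Prmt5sKO libraries, whereas Acacb, the mitochondrial acetyl-CoA carboxylase whose product restrains fatty acid oxidation, had 57.5 and 46.9 in control against 112 and 102 in Prmt5sKO (log2 difference 1.03, SE 0.44). The carboxylases Acaca and Acacb thus had differences of opposite sign.

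The machinery that moves and cleaves the SREBP proteins had a median log2 difference of 0.14 over 4 genes. Scap, the escort, had 1447 and 1246 in control against 1439 and 1422 in Prmt5sKO, and the proteases Mbtps1 and Mbtps2 had log2 differences of -0.17 (SE 0.21) and 0.18 (SE 0.30). Leaving out single libraries turned the sign of Scap (from -0.01 to 0.19) and Mbtps2 (from -0.15 to 0.48). Insig2, the INSIG gene that is not a classical SREBP target, had 344 and 362 in control against 454 and 572 in Prmt5sKO (log2 difference 0.52, SE 0.26). Insig2 was thus higher, and Insig1 lower, in both Prmt5sKO libraries.

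Sterol export, storage and trafficking held 10 genes, 6 of them higher and 1 lower in both Prmt5sKO libraries (median log2 difference 0.43). Over all genes tested, 25.2% were higher in both and 23.6% lower. Abca1, an LXR target that exports cholesterol, had 13.3 and 20.3 normalized counts in control against 186 and 155 in Prmt5sKO. The Prmt5sKO mean was 10.2 times the control mean, at a log2 difference of 3.36 (SE 0.60, limma-voom adjusted p = 0.214). Abcg1, its partner in export, had 15.5 and 2.54 in control against 83.4 and 77.7 in Prmt5sKO (log2 difference 3.46, SE 0.91, limma-voom adjusted p = 0.276, from 2.35 to 4.66 without single libraries). The shallower control value of Abcg1 stands for 2 reads. Mylip, an LXR target that marks lipoprotein receptors for degradation, had 153 and 156 in control against 336 and 323 in Prmt5sKO, a log2 difference of 1.09 (SE 0.29, limma-voom adjusted p = 0.276) with close replicates. Nr1h3, which encodes an LXR receptor, had 12.2 and 10.1 in control against 17.4 and 13.8 in Prmt5sKO (log2 difference 0.45, SE 0.77), values too low to place.

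Of 11 genes of fatty acid oxidation, 10 were tested, 5 of these were higher in both Prmt5sKO libraries and 0 lower (median log2 difference 0.47). The shares over all genes tested were 25.2% higher and 23.6% lower. Cpt1b, the muscle form of the carnitine transferase, was under the filter. Hadha and Hadhb, the subunits of the trifunctional protein, had log2 differences of 0.53 (SE 0.19) and 0.79 (SE 0.27), the latter from 0.48 to 1.06 without single libraries. Hadha had 2083 and 2168 in control against 2951 and 3192 in Prmt5sKO, and Hadhb had 297 and 439 against 627 and 609. Acadvl overlapped, with 847 and 496 in control against 809 and 1453 in Prmt5sKO (log2 difference 0.72, from 0.30 to 1.15 without single libraries). Ppara, a receptor that drives oxidation genes, had 4.42 and 16.5 in control against 9.42 and 17.7 in Prmt5sKO, also overlapping (log2 difference 0.52, SE 0.99, from -0.42 to 1.38 without single libraries).

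**Figure D4:**
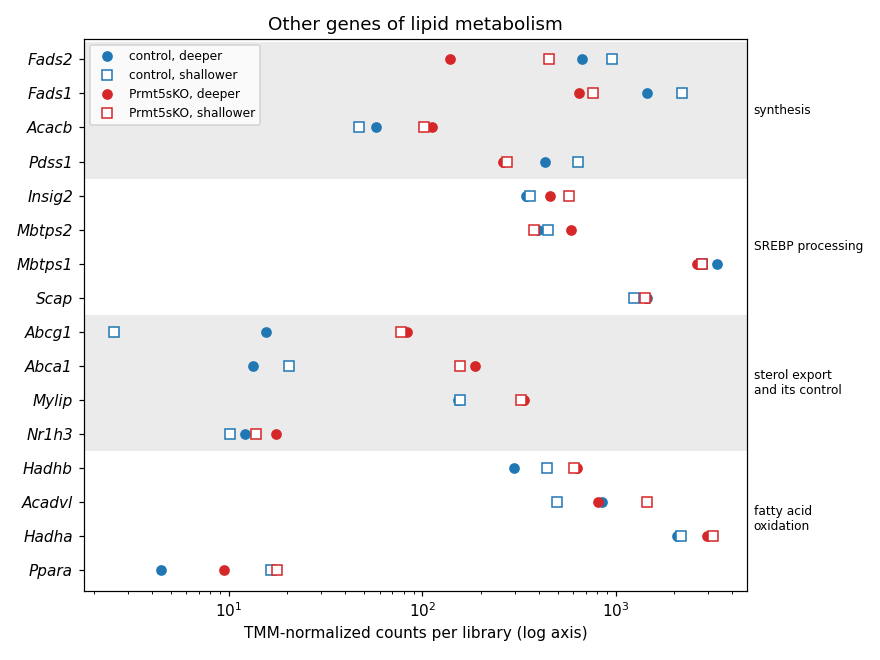
TMM-normalized counts (log axis) of the 4 genes with the largest differences in each neighbouring list, in the deeper (circles) and shallower (squares) control (blue) and Prmt5sKO (red) libraries. Abca1 and Abcg1 lie far to the right in both Prmt5sKO libraries, Pdss1, Fads1 and Fads2 to the left, and Scap and the Mbtps genes close to control.

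Markers of other cells were read beside these values, since adipocytes express many of the same lipid genes. Of 8 adipocyte markers, Adipoq, Cidec and Retn were not among the listed genes, Plin1 had 0 counts except for 4.35 normalized counts in the deeper Prmt5sKO library, and Fabp4 had 0 except for 25.4 in the shallower control library. The 5 listed markers summed to 685 to 953 in control and 283 to 769 in Prmt5sKO, mostly Lpl and Pparg. The 6 fibroblast markers, mostly Col1a2, summed to 1892 to 6059 in control and 3997 to 12632 in Prmt5sKO, the 3 listed of 5 endothelial markers to 108 to 133 and 26.6 to 46.4, and the 3 listed of 5 leukocyte markers to 119 to 123 and 64.5 to 98.4. Sums of adipocyte and fibroblast markers overlapped between the groups, and those of endothelial and leukocyte markers were lower in both Prmt5sKO libraries. Among the adipocyte markers, Pparg (226 and 252 in control against 100 and 170 in Prmt5sKO) was lower in both Prmt5sKO libraries, as were 23.6% of all genes tested. Lpl (460 and 650 against 168 and 536) and Cd36 (0 and 25.4 against 10.9 and 63.0) overlapped. Among the fibroblast markers, Col1a2 (5884 and 1621 in control) and Col1a1 (113.9 and 58.36) were lower in the shallower control library than in the deeper one. Dcn (7.738 and 112.9), Lum (0 and 26.64), Ly6a (15.48 and 29.18) and Pdgfra (37.59 and 43.13) were higher in it. Dcn, Lum and Pdgfra were highest there of all 4 libraries, so the fibroblast sum follows Col1a2 and not these markers. The leukocyte sum was mostly Cd68 (97.3 and 109 in control against 53.6 and 49.2 in Prmt5sKO). Itgam (4.42 and 0 against 3.62 and 21.6) and Csf1r (17.7 and 14.0 against 7.25 and 27.5) overlapped. The part of any of these cells in the lipid genes was not tested.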

How the data were processed

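RNA of cultured MuSC was depleted of ribosomal RNA and sequenced on the Ion Torrent Proton platform (2 control and 2 Prmt5sKO libraries). The submitters' processing notes name STAR 2.4.0a, DESeq2 1.62 and GRCm38. The signal values deposited by the authors are means, per group and over all libraries, of counts divided by DESeq2 size factors. The table also holds the authors' log2 fold changes with standard errors and p-value columns, which were not used. Each group mean is a sum of whole multiples of a step per library, which returned the read counts of single libraries for 100% of genes. This recovery was tested on simulated data. GENCODE M21 gave symbols for 19782 of 20065 identifiers, coordinates and exon lengths.

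Counts were scaled by TMM (own code, trims of 30% and 5%). Genes averaging at least 5 normalized counts were fitted with limma-voom (limma 3.58.1, R 4.3.3) without covariates, and called where the Benjamini-Hochberg adjusted p was 0.05 or less and the fold 2 or more. Differences between single libraries used log2 of the normalized count plus 1. Alternatives were 3 other scalings, no filter, robust limma-trend, a replicate block and leaving out each library. Every member was named; of each neighbouring list, the 4 tested genes with the largest absolute log2 difference were named. An item of the synthesis list is not reported here. Members and lists were chosen with earlier results of these data known. Depth limits precision for members with few reads, the lowest being 32 reads of Acss2 in a control library. Figures were drawn with matplotlib 3.10.9.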

Additional observations from a re-analysis of the deposited data

How the results depend on the processing

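Every member kept its direction under other scalings, no filter, robust limma-trend and both blocks. Of 308 member values over 11 alternatives, 296 kept both direction and call, 9 reversed and 3 passed the threshold. Leaving out 1 library reversed 7 members, whose log2 differences then ranged from -0.23 to 0.28 (Ebp), -0.71 to 0.083 (Pmvk), -0.72 to 0.24 (Mvd), -0.82 to 0.16 (Fdft1), -0.55 to 0.23 (Scd1), -0.90 to 0.28 (Scd2) and -0.97 to 0.61 (Tm7sf2). Without single libraries, the count of genes called over all genes ranged from 0 to 480 (480 without the deeper and 54 without the shallower Prmt5sKO library, where the lone library is assumed to vary like the other group), members called from 0 to 1 (Fasn, without the deeper Prmt5sKO library), members lower from 16 to 24 and members higher from 1 to 4. The shares of all genes then ranged from 33.9% to 38.4% for lower and from 35.4% to 39.6% for higher. The 16 lower members were counted without the deeper Prmt5sKO library, where 38.4% of all genes were lower. Without the deeper control library 23 members were lower, against 36.1% of all genes. Without single libraries, medians ranged from -0.90 to -0.30 over the members, -0.98 to -0.33 for mevalonate genes and -1.12 to -0.11 for squalene and lanosterol genes. They ranged from -0.87 to -0.30 for post-lanosterol genes, -0.89 to -0.38 for regulators and -0.63 to -0.48 for fatty acid genes. Prmt5 passed the threshold in robust limma-trend (log2 difference -3.52, the 1 gene called) and ranged from -3.71 to -3.33 without single libraries.

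The labels number the replicates but the columns do not. A replicate block pairing the deeper libraries called 0 genes, with a member median of -0.60. Deviations of the deeper libraries from their group means correlated at -0.29 over 11461 genes, so the crossed pairing, which also joins libraries alike in Xist, was added after seeing the data: this replicate block called 334 genes, among them Elovl6 and Fasn and also Prmt5 (-3.54). The cause of these changes was not tested. With 2 libraries in a group and the shallower control library high for most members, the sizes of the differences are known only loosely.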
